A study of Mus musculus with 6 samples.

Results

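Keratins are the intermediate filament proteins of epithelial cells, and their genes are described here in medullary epithelial cells of the mouse thymus, the cells that display tissue proteins from around the body to maturing thymocytes. The members were the genes whose array annotation gives exactly 1 symbol made of Krt and a digit, with the Krtap genes of the hair matrix left out. That gave 52 of 19938 genes with a single symbol, 28 of type I and 24 of type II. Each of the 52 had 1 probe set, so the rule of keeping a gene's brightest probe set had nothing to choose between. The group was chosen with results of these arrays known in which several keratins were lower in KO mice. The cells came from 3 Aire KO mice (labelled Aire-/-) and 3 Aire WT mice, all (B6xNOD)F1, 4 to 6 weeks old and used singly. They were sorted as CD45-, Ly51 intermediate and MHC class II high, and their RNA was amplified in 2 rounds before hybridisation. The labels name no other allele or agent, and the deleted part of Aire is not given. The RNA is that of a whole sorted population, so fewer cells of a type and less RNA per cell cannot be told apart.

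A keratin filament is built from pairs of an acidic type I chain and a basic type II chain, and each kind of epithelium has its own pairs. Dividing basal cells of stratified epithelia use Krt5 with Krt14, the layers above them in skin use Krt1 with Krt10, the lining of mouth and oesophagus uses Krt4 with Krt13, and simple epithelia use Krt8 with Krt18. Hair follicles have further keratins for the inner root sheath and for the hard shaft. In the thymus, Krt5 and Krt14 are known as markers of the medulla, and Krt1 and Krt10 mark keratinised medullary cells such as those of Hassall's corpuscles. Aire is a transcriptional regulator that the medulla needs for many genes typical of other organs.

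Start regions are shown for 4 members that fell and for the Krt8 and Krt18 pair, which was not called, because the results below set these genes apart. Sequences are from RefSeq on GRCm38.p6, 5′ to 3′ on the gene's strand, from 250 bases before the annotated start to 50 after it. Start regions were found for 36 of the 52 members. Capitals mark a match to TATAAA, the core of the TATA box, or to TGANTCA, where N is any base. That pattern takes in the binding motif of AP-1 factors, TGACTCA or TGAGTCA, but is wider. Both strands were searched. Krt10, Krt76 and Krt77 encode chains of the upper layers of skin and palate, and Krt13 the type I chain of mouth lining, of which 1 of 2 annotated starts is shown.
Krt10 (chr11:99389315-99389614, minus strand): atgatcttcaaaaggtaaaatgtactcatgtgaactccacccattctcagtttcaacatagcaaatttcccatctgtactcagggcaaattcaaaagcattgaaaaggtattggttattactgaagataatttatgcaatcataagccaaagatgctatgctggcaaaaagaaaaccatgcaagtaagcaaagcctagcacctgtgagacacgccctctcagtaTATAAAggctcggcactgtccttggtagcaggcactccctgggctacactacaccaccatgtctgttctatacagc
Krt76 (chr15:101892871-101893170, minus strand): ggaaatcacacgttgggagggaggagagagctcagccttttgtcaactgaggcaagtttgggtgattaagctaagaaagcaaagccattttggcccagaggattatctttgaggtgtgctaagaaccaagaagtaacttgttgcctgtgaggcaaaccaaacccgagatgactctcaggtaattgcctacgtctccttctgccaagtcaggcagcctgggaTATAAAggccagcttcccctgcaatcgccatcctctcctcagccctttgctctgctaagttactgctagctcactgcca
Krt77 (chr15:101869656-101869955, minus strand): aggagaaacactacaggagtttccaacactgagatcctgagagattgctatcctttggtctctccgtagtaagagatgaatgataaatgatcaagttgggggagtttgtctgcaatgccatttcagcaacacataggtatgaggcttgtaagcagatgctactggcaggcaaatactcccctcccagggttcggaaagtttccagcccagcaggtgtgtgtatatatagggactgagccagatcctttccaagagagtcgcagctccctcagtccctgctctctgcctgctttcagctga
Krt13 (chr11:100120528-100120827, minus strand): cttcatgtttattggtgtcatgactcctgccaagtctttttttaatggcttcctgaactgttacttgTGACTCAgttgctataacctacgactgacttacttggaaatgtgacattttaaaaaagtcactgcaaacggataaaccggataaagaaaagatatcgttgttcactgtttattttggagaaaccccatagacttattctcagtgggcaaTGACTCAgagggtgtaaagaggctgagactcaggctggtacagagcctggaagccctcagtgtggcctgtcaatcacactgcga
Krt8 (chr15:102004293-102004592, minus strand): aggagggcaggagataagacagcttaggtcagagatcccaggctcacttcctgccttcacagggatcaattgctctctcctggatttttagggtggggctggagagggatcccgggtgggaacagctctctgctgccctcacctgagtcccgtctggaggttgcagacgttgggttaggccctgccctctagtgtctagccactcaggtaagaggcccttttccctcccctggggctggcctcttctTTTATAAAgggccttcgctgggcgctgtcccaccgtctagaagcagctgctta
Krt18 (chr15:102027966-102028265, plus strand): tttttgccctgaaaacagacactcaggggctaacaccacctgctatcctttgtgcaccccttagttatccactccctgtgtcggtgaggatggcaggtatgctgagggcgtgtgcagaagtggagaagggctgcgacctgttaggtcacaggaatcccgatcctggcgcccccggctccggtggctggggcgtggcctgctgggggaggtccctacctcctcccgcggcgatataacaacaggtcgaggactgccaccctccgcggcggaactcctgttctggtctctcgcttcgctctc
TATAAA began 26 bases before the start of Krt10 and 29 bases before that of Krt76. Krt8 had it at the start itself, in 2 matches on opposite strands that share 4 bases, and Krt77 and Krt18 had none in this window. Of the 36 members, 13 had TATAAA on the gene strand beginning 40 to 20 bases before the start, against 1.99% of 32851 start regions of all genes. By call, these were 7 of 17 members that fell, 1 of 10 that were tested and not called, and 5 of 9 that were too dim to test. TATAAA anywhere in the window was found in 19 of the 36 members and in 13.6% of all regions. TGANTCA was found in 1 member, Krt13, and in 7.81% of all regions, and GGGCGG, the Sp1 motif, in 2 members, Krt7 and Krt75, and in 35.7% of all regions. The Krt13 start region shown held 2 matches, both TGACTCA, and the region of its other start held 1, TGAATCA. A match is a run of letters and not a shown binding site.

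Many keratins were lower in the KO mice, and no keratin was called higher. A gene was tested when its log2 intensity exceeded 5.97, the 40th percentile of all values, on at least 3 of the 6 arrays. Of the 52 keratins 41 met this, and 27 of them fell, 0 rose and 14 were not called by limma at an adjusted p threshold of 0.05. Over all 13925 tested genes, 14.1% fell, 12.0% rose and 26.1% were called in either direction. The median log2 change, KO minus WT, was -0.44 over the tested keratins and 0.02 over all tested genes. At an unadjusted p under 0.05 with limma, 2 keratins were higher, Krt31 and Krt88.

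Counts by size were smaller than those by separation of the groups. Falls of at least 2-fold were called in 15 keratins, against 2.11% of all tested genes. A test for a log2 change beyond 0.5 (limma's treat) also left 15, against 2.43% of all tested genes. KO and WT mice did not overlap, with KO lower, in 29 tested keratins (20.5% of all tested genes), and with KO higher in 2, Krt31 and Krt18 (22.0% of all tested genes).

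The intensity filter bears on these counts. Krt13, Krt4, Krt86 and Krt33a passed it on WT arrays alone, so they had to be lower. All 4 are among the 29 keratins without overlap, and for them the filter fixed that separation. Krt13 and Krt4 are also among the 15 that fell by 2-fold or more. Without those 4, an alternative added after the data were seen, 23 of 37 keratins fell and the median was -0.42. With no filter, 28 of 52 fell, against 11.0% of 19938 genes, and the median of all 52 was -0.34.

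Both chain types took part. Of 20 tested type I genes 13 fell, 8 of them by 2-fold or more, with a median log2 change of -0.47. Of 21 tested type II genes 14 fell, 7 of them by 2-fold or more, with a median of -0.42. Whether the types differ was not tested.

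**Figure D1:**
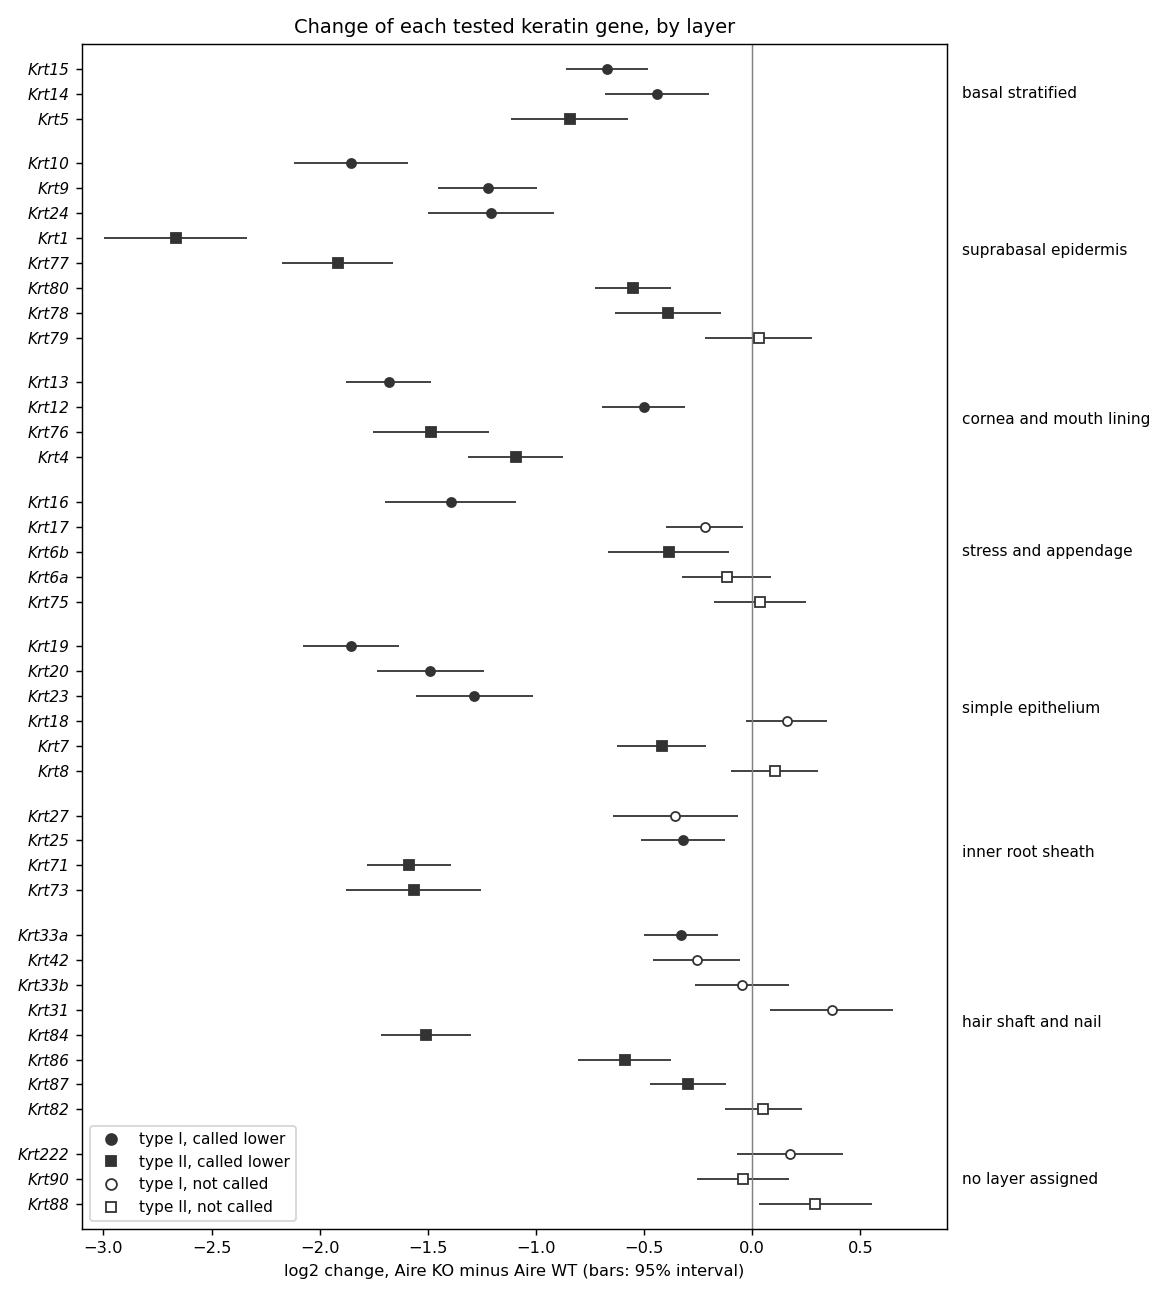
Log2 change (KO minus WT) of the 41 tested keratin genes, grouped by the tissue layer each is known from, with 95% intervals from limma over 3 mice a group. Circles are type I and squares type II, filled where the gene fell by limma. Krt1 lies lowest at -2.67, while Krt8, Krt75, Krt79 and Krt82 are among those with intervals across 0.

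Suprabasal keratins, made by skin cells that have left the basal layer, held the largest fall of any keratin. Of 9 members 8 were tested and 7 fell, 5 of them by 2-fold or more. Krt1 (probe set 10432852), the main type II chain of these layers, had log2 intensities of 6.42, 6.86 and 6.86 in the KO mice, against 9.10, 9.38 and 9.66 in the WT mice. Every KO mouse lay below every WT mouse, by at least 2.24. The change was -2.67 with SE 0.15 over 3 mice a group, a 6.35-fold fall (limma adjusted p = 2.9e-07).

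Krt10 (probe set 10390831), the type I partner of Krt1, gave 8.46, 8.58 and 8.89 in the KO mice, against 10.34, 10.66 and 10.51 in the WT mice. The groups were again well apart, and the fall was 3.62-fold (log2 -1.86, SE 0.12, limma adjusted p = 8.8e-07). Krt77 (probe set 10432866), a type II chain of skin, gave 7.73, 8.15 and 8.12 in the KO mice, against 9.84, 9.89 and 10.03 in the WT mice. It fell 3.78-fold (log2 -1.92, limma adjusted p = 5.4e-07), and KO replicate 1 had the lowest value of the 6 mice for Krt1, Krt10 and Krt77 alike.

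Krt9, the type I keratin of palm and sole skin, gave 7.49, 7.43 and 7.40 in the KO mice, against 8.57, 8.90 and 8.52 in the WT mice. It fell 2.34-fold with the 3 KO mice close together (limma adjusted p = 7.6e-06). Krt24, another type I chain, gave 6.64, 6.90 and 6.53 in the KO mice, against 7.66, 7.86 and 8.17 in the WT mice, a 2.31-fold fall (limma adjusted p = 5.5e-05).

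The remaining type II genes of the group changed less. Krt80 gave 7.35, 7.31 and 7.29 in the KO mice, against 7.84, 7.96 and 7.81 in the WT mice, a change of -0.55 with separate groups (limma adjusted p = 4.7e-04). Krt78 gave 7.77, 7.99 and 7.79 in the KO mice, against 8.00, 8.32 and 8.39 in the WT mice, a change of -0.39 with the groups 0.01 apart at their nearest mice (limma adjusted p = 0.026). The Krt78 call rested on few mice, since dropping WT replicate 2, WT replicate 3, KO replicate 1 or KO replicate 3 gave an adjusted p by limma of 0.070, 0.077, 0.092 and 0.090.

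Krt79, the neighbour of Krt78 in the genome, gave 8.45, 8.81 and 8.87 in the KO mice, against 8.67, 8.77 and 8.61 in the WT mice. The groups overlapped and the gene was not called, with a difference of 0.03 and a 95% interval of -0.22 to 0.27. Krt2, the type II keratin of the uppermost living layers of skin, was too dim to test, at 5.16, 5.16 and 5.13 in the KO mice, against 5.47, 5.35 and 5.17 in the WT mice.

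**Figure D2:**
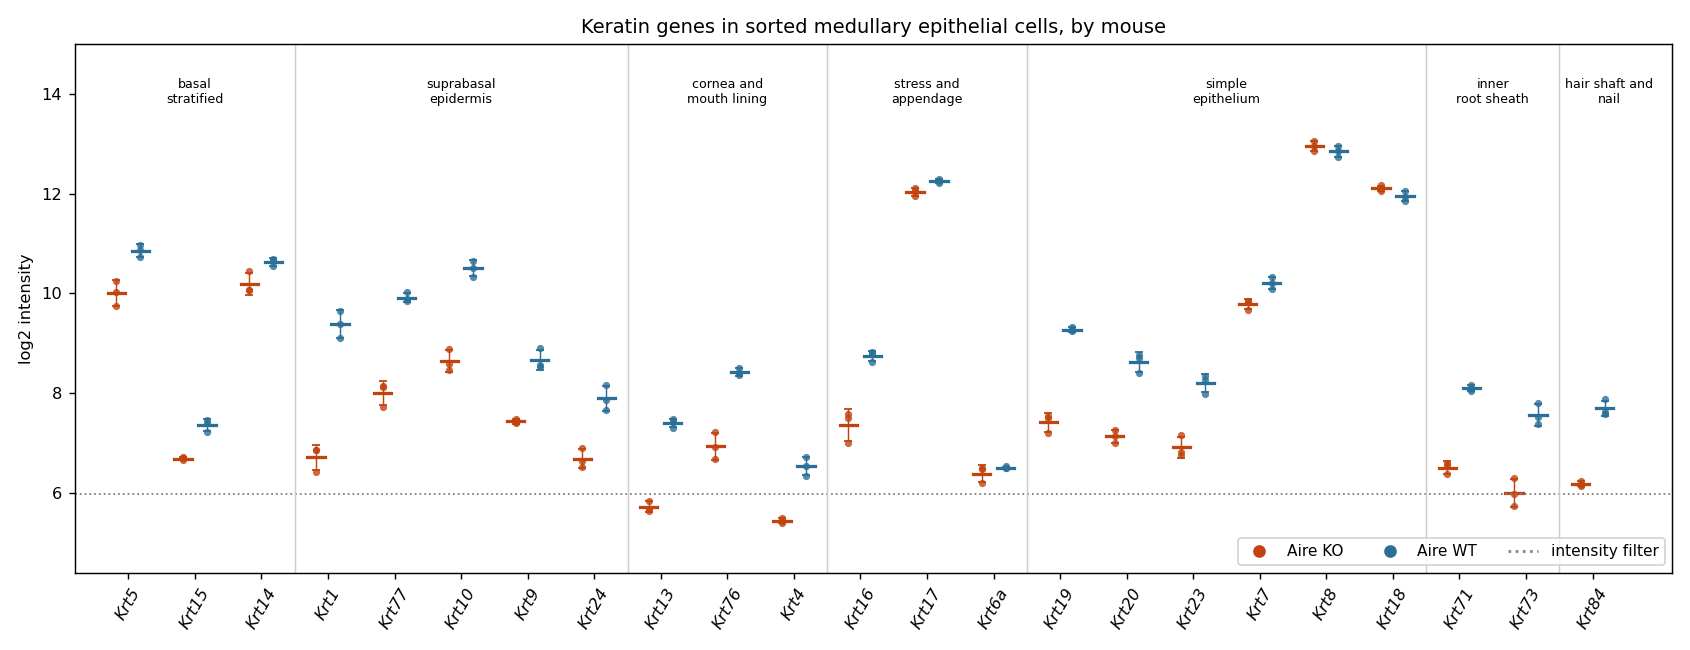
Log2 intensity of 23 keratin genes in each mouse, orange for KO and blue for WT, with group means (thick bars) and SDs (thin bars, n = 3). Shown are the 15 that fell by 2-fold or more with Krt5, Krt14, Krt15, Krt17, Krt6a, Krt7, Krt8 and Krt18, and every KO point of Krt13 and Krt4 lies under the dotted line, the intensity filter at 5.97.

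Basal keratins, which also mark the medulla, all fell, each by less than 2-fold. Krt5 (probe set 10432785) gave 9.75, 10.04 and 10.26 in the KO mice, against 10.98, 10.86 and 10.73 in the WT mice. No KO mouse reached a WT mouse, and the change was -0.84 (SE 0.12, limma adjusted p = 4.7e-04). Krt14 (probe set 10391052), its type I partner, gave 10.08, 10.06 and 10.44 in the KO mice, against 10.67, 10.69 and 10.54 in the WT mice.

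Krt14 changed by -0.44 (limma adjusted p = 0.012), with KO replicate 3 only 0.10 below the nearest WT mouse. Dropping KO replicate 1 or KO replicate 2 ended the call, with adjusted p by limma of 0.057 and 0.052. Krt15, a type I keratin of basal cells and hair follicle stem cells, gave 6.66, 6.72 and 6.70 in the KO mice, against 7.23, 7.40 and 7.46 in the WT mice. Its groups were 0.51 apart and the change was -0.67 (limma adjusted p = 1.9e-04).

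Keratins of the cornea and of the lining of mouth and oesophagus fell in all 4 cases. Krt13 (probe set 10391013) gave 5.68, 5.64 and 5.85 in the KO mice, against 7.48, 7.43 and 7.31 in the WT mice, a change of -1.68 (limma adjusted p = 2.2e-07). Its partner Krt4 (probe set 10432886) gave 5.45, 5.49 and 5.40 in the KO mice, against 6.72, 6.35 and 6.55 in the WT mice, a change of -1.09 (limma adjusted p = 1.3e-05). Every KO value of both genes lay under the filter, and both were counted only through the WT arrays.

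Krt76 (probe set 10432876), the type II keratin of the hard palate, stayed above the filter on every array. It gave 6.68, 6.92 and 7.21 in the KO mice, against 8.40, 8.36 and 8.51 in the WT mice, a 2.80-fold fall (limma adjusted p = 5.3e-06). Krt12, the corneal type I keratin, gave 7.64, 7.61 and 7.81 in the KO mice, against 8.24, 8.23 and 8.10 in the WT mice, a change of -0.50 (limma adjusted p = 0.0017).

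Simple epithelial keratins did not move as one, with 4 of 6 lower and the Krt8 and Krt18 pair not called. Krt8 (probe set 10432918), the type II chain that simple epithelia share, gave 12.95, 12.85 and 13.06 in the KO mice, against 12.85, 12.96 and 12.74 in the WT mice. The groups overlapped, and the difference was 0.10 with a 95% interval of -0.10 to 0.31. Krt18 (probe set 10427075), its type I partner, gave 12.06, 12.09 and 12.17 in the KO mice, against 11.85, 11.93 and 12.05 in the WT mice. Its KO mice were all above the WT mice, by 0.01 at the nearest, and the difference of 0.16 (95% interval -0.03 to 0.35) was not called (limma adjusted p = 0.19).

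Krt19 (probe set 10391036), a type I chain of ducts and glands, gave 7.20, 7.51 and 7.55 in the KO mice, against 9.26, 9.24 and 9.33 in the WT mice. The groups were 1.69 apart and the fall was 3.62-fold (log2 -1.86, SE 0.10, limma adjusted p = 2.4e-07). Krt20 (probe set 10390850), known from the gut lining, the bladder surface and Merkel cells, gave 7.27, 7.15 and 7.01 in the KO mice, against 8.77, 8.71 and 8.40 in the WT mice. It fell 2.81-fold (limma adjusted p = 2.7e-06).

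Krt23 (probe set 10390860), another type I gene, gave 6.83, 6.76 and 7.16 in the KO mice, against 7.99, 8.26 and 8.35 in the WT mice, a 2.44-fold fall (limma adjusted p = 1.8e-05). The type II gene Krt7, of ducts and bladder, gave 9.67, 9.84 and 9.85 in the KO mice, against 10.21, 10.08 and 10.33 in the WT mice. Its change was -0.42 (limma adjusted p = 0.0070), with separate groups.

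Keratins of stressed skin and of appendages were mixed, with 2 of 5 called lower. Krt16 (probe set 10391061), which skin makes after injury, gave 7.58, 6.99 and 7.50 in the KO mice, against 8.63, 8.80 and 8.82 in the WT mice. The groups were 1.05 apart and the change was -1.40 (limma adjusted p = 2.3e-05). Krt17 (probe set 10391066), induced with it in injured skin, gave 12.05, 11.95 and 12.11 in the KO mice, against 12.25, 12.22 and 12.29 in the WT mice. The Krt17 groups did not overlap, but its difference of -0.22 was not called (limma adjusted p = 0.067). It was called by limma with an offset of 32 (adjusted p = 0.040) and with trended, robust variances (adjusted p = 0.024).

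Krt6a, the usual type II partner of Krt16, gave 6.49, 6.47 and 6.20 in the KO mice, against 6.49, 6.50 and 6.53 in the WT mice. It was not called, with a 95% interval of -0.32 to 0.09. Krt6b gave 6.60, 6.65 and 7.07 in the KO mice, against 7.23, 7.27 and 6.98 in the WT mice, a change of -0.39 (limma adjusted p = 0.045) with overlapping groups. Leaving out either of WT replicates 1 and 2 gave an adjusted p by limma of 0.11 and 0.12, and leaving out either of KO replicates 1 and 2 gave 0.17 and 0.14. It was 0.053 with no filter. Krt6a and Krt6b are near-identical copies whose probe sets may share signal. Krt75, of the hair follicle's companion layer, stood at 0.04 and was not called.

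Keratins of the hair follicle's inner root sheath fell in 3 of 4 tested genes, and the other 4 were too dim to test. Krt71 (probe set 10432799) gave 6.55, 6.37 and 6.60 in the KO mice, against 8.16, 8.09 and 8.04 in the WT mice, a 3.01-fold fall (limma adjusted p = 2.8e-07). Krt73 (probe set 10432831), like Krt71 a type II chain, gave 5.74, 5.97 and 6.29 in the KO mice, against 7.38, 7.80 and 7.52 in the WT mice, a 2.96-fold fall (limma adjusted p = 1.3e-05). For Krt73 only 1 of 3 KO arrays exceeded the filter.

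The type I chains of the sheath changed less. Krt25 gave 6.47, 6.29 and 6.42 in the KO mice, against 6.82, 6.63 and 6.70 in the WT mice, a change of -0.32 (limma adjusted p = 0.021). Dropping WT replicate 1, KO replicate 2 or KO replicate 3 ended that call, with adjusted p by limma of 0.080, 0.072 and 0.056. Krt27, at -0.36, was not called (limma adjusted p = 0.067), and was called when KO replicate 2 was dropped (limma adjusted p = 0.0064).

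Of the keratins of hair shaft and nail, 6 of 14 were under the filter and 4 of the 8 tested fell. Krt84 (probe set 10432711), a hard type II keratin, gave 6.17, 6.25 and 6.15 in the KO mice, against 7.59, 7.62 and 7.88 in the WT mice. It fell 2.84-fold with the groups 1.34 apart (limma adjusted p = 6.7e-07). Krt86 gave 5.66, 5.76 and 5.61 in the KO mice, against 6.46, 6.17 and 6.18 in the WT mice, a change of -0.59 (limma adjusted p = 0.0011). Both Krt86 and the type I gene Krt33a were counted only through the WT arrays.

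Krt33a gave 5.87, 5.81 and 5.90 in the KO mice, against 6.14, 6.23 and 6.20 in the WT mice, a change of -0.33 (limma adjusted p = 0.010). Krt87 gave 7.20, 7.19 and 7.19 in the KO mice, against 7.49, 7.57 and 7.41 in the WT mice, a change of -0.30 (limma adjusted p = 0.019). The Krt87 call ended when WT replicate 1, WT replicate 2, KO replicate 1 or KO replicate 3 was dropped, with adjusted p by limma of 0.051, 0.071, 0.057 and 0.063. Hair keratins are close copies of one another, and probe sets of Krt86, Krt33a and their nearest relatives may share signal.

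The other keratins were not called. Krt31, Krt33b, Krt42 and Krt82 lay between -0.26 and 0.37, and Krt42 was called when WT replicate 3 was dropped (limma adjusted p = 0.015). Krt222, Krt88 and Krt90, put in no layer, lay between -0.04 and 0.29. Krt222 and Krt88 were each called higher with 1 WT mouse dropped, Krt222 without WT replicate 3 (limma adjusted p = 0.032) and Krt88 without WT replicate 1 (limma adjusted p = 0.011). The 11 keratins under the filter lay between -0.47, for Krt72, and 0.31, for Krt35. Just outside it were Krt72, above 5.97 on 2 WT arrays and no KO array, and Krt34 and Krt35, each above it on 2 KO arrays and no WT array. Just inside it was Krt33a, above it on the 3 WT arrays alone.

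In RefSeq gene order, type I members lie together on chromosome 11 and type II members on chromosome 15, with type I Krt18 at the end of the second cluster. Of 27 members on chromosome 11 13 fell, and of 25 on chromosome 15 14 fell, where 14.1% of all tested genes fell. These totals hold the members under the filter, which could not be called, 8 of type I on chromosome 11 and 3 of type II on chromosome 15. The 2 counts are therefore not shares of tested genes and do not rank the clusters. The longest run of neighbouring measured keratins that all fell had 6 genes, Krt13, Krt15, Krt19, Krt9, Krt14 and Krt16, which belong to 5 of the layers described above. Runs of 4 were Krt10, Krt12, Krt20 and Krt23 on chromosome 11 and Krt1, Krt77, Krt76 and Krt4 on chromosome 15. Krt13 in the run of 6 and Krt4 in the run on chromosome 15 passed the filter on WT arrays alone, so they had to be lower. So did Krt33a on chromosome 11 and Krt86 on chromosome 15, which are in the counts of 13 and 14. Krt14, within the run of 6, lost its call when KO replicate 1 or KO replicate 2 was dropped. Krt17 and Krt42 follow the first run and were not called, and Krt8 and Krt18 stand side by side and were not called. Whether neighbours moved together more often than other keratins was not tested.

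**Figure D3:**
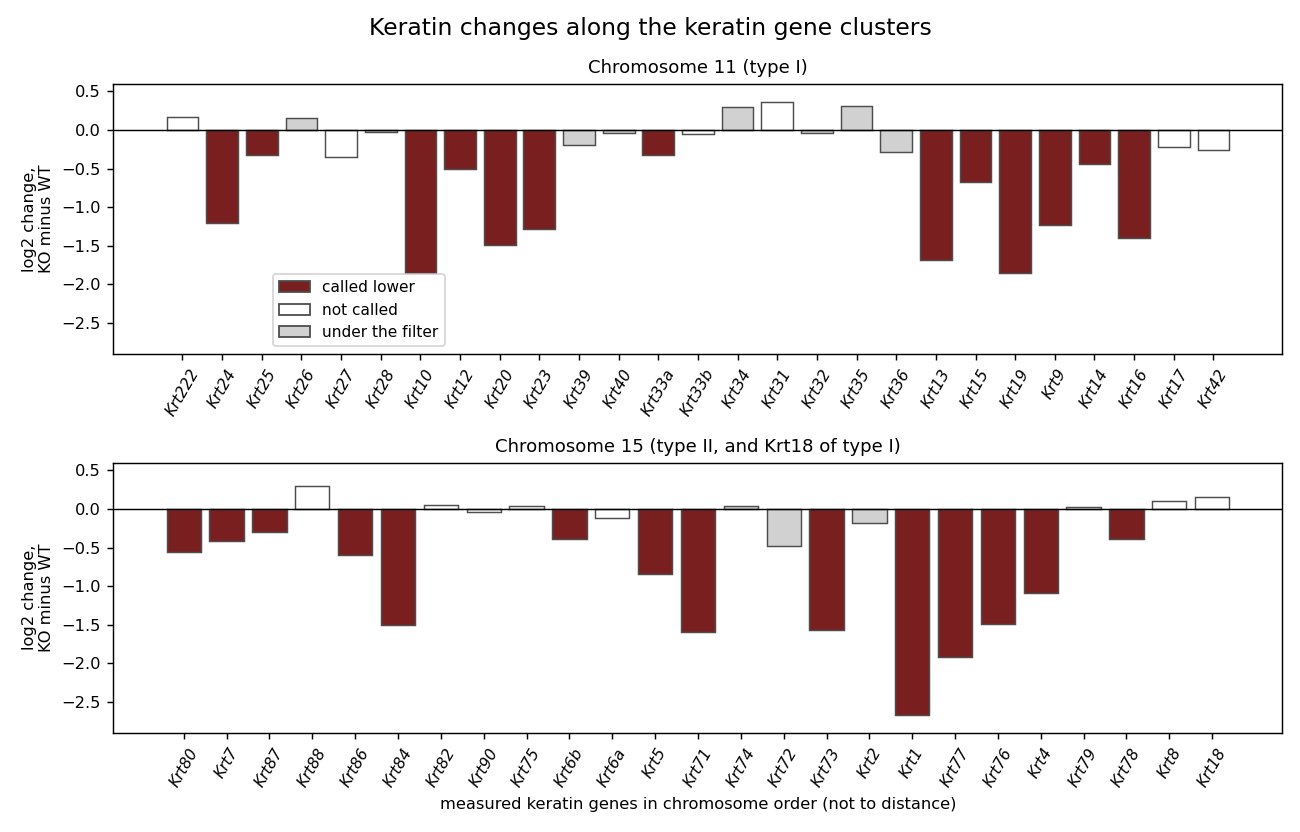
Log2 change (KO minus WT) of all 52 keratin genes in chromosome order, not drawn to distance, for chromosome 11 above and chromosome 15 below. Dark bars fell by limma, white bars were not called and grey bars were under the filter, and Krt13 to Krt16 on chromosome 11 and Krt1 to Krt4 on chromosome 15 form runs of dark bars.

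The partners of a pair were then compared within each array, as the type II minus the type I log2 value. This cancels a log2 shift common to all genes of an array. A scaling that depends on brightness, such as the quantile step of the deposited values, does not cancel. With 3 mice against 3, the smallest two-sided exact permutation p is 0.10, so none of the 5 pairs could pass 0.05. Krt1 minus Krt10 was -2.04, -1.72 and -2.03 in the KO mice, against -1.24, -1.27 and -0.85 in the WT mice, a shift of -0.81 (SE 0.17, two-sided exact permutation p = 0.10, adjusted 0.125 over the 5 pairs). The KO mice all lay below the WT mice, Krt1 having the deeper fall. Krt5 minus Krt14 was -0.33, -0.02 and -0.18 in the KO mice, against 0.31, 0.17 and 0.19 in the WT mice, a shift of -0.40 (SE 0.10, two-sided exact permutation p = 0.10, adjusted 0.125 over the 5 pairs). Here too the type II chain fell further and the groups did not overlap.

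In 2 further pairs the type I chain had the more negative change. Krt6a minus Krt16 averaged -0.97 ± 0.40 in KO mice and -2.24 ± 0.09 in WT mice (SD, n = 3 each), a shift of 1.28 (SE 0.24, two-sided exact permutation p = 0.10, adjusted 0.125 over the 5 pairs). Krt4 minus Krt13 averaged -0.28 ± 0.15 in KO mice and -0.87 ± 0.19 in WT mice (SD, n = 3 each), a shift of 0.59 (SE 0.14, two-sided exact permutation p = 0.10, adjusted 0.125 over the 5 pairs). The groups did not overlap in either pair, but the KO values of Krt4 and Krt13 lay under the filter. Krt8 minus Krt18 averaged 0.85 ± 0.07 in KO mice and 0.91 ± 0.19 in WT mice (SD, n = 3 each) with overlapping groups, a shift of -0.06 (SE 0.12, two-sided exact permutation p = 0.60, adjusted 0.6 over the 5 pairs).

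**Figure D4:**
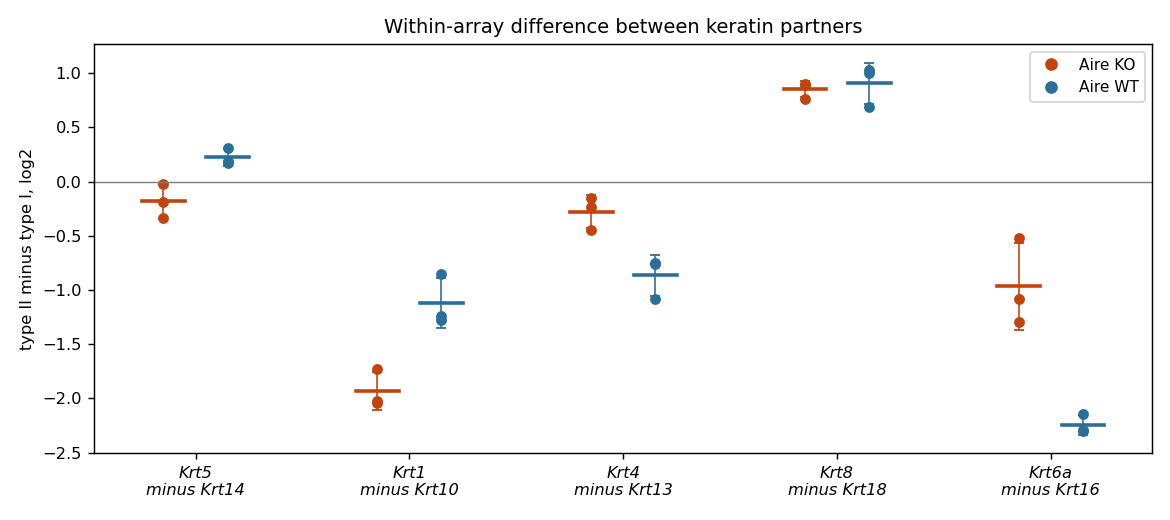
Within-array difference of log2 intensity, type II minus type I, for 5 keratin pairs, orange for KO and blue for WT mice, with means (thick bars) and SDs (thin bars, n = 3). KO and WT mice overlap for Krt8 minus Krt18 alone. The height of a pair mixes its probe sets' own brightness, so only the shift between groups can be read.

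Proteins that anchor or bundle keratin filaments were listed as partners, together with kinectin (Ktn1), which is not of that class. Of 26 listed genes 22 were tested, and 7 fell, 1 rose and 14 were not called, with a median of -0.10, where 14.1% of all tested genes fell and 12.0% rose. Ktn1 was among the 7 that fell (log2 -0.61). Trichohyalin (Tchh), which cross-links keratins of the inner root sheath, gave 7.14, 7.58 and 7.49 in the KO mice, against 8.40, 8.53 and 8.46 in the WT mice. It fell 2.08-fold (limma adjusted p = 4.1e-05). Of the desmosome genes, Dsc2 changed by -0.63, Dsp by -0.67 and Dsg3 by -0.69, and Dsg3 passed the filter on WT arrays alone. The desmosome gene Pkp2 rose by 0.33 (limma adjusted p = 0.0082), and 2 partners rose when WT replicate 3 was left out. Jup, Dsc3, Dsg2, Pkp1 and Pkp3, also of desmosomes, lay between -0.28 and 0.08 and were not called.

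Transcription factors of epithelial and hair differentiation, together with the receptor gene Notch1, were a further list. Of 28 listed 22 were tested, and 5 fell, 1 rose and 16 were not called, with a median of -0.10. The 6 called of 22 are close to the 26.1% called over all tested genes. Klf5, of proliferating epithelium, averaged 8.18 ± 0.17 in KO mice and 8.91 ± 0.04 in WT mice (SD, n = 3 each), a change of -0.73 (limma adjusted p = 2.4e-04). Hes1 changed by -0.46 and Cdx2 by -0.43, and Grhl3, of the skin barrier, rose by 0.32. Trp63, the master regulator of stratified epithelium, stood at 0.14 and was not called. Leaving out KO replicate 1 or KO replicate 3 left 3 factors that fell, and leaving out WT replicate 1 or KO replicate 1 left 0 that rose.

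Intermediate filament genes outside the keratins gave 5 falls, 1 rise and 7 not called among 13 tested of 16, with a median of -0.14, where 14.1% of all tested genes fell and 12.0% rose. The neurofilament gene Nefl gave 6.41, 6.08 and 5.84 in the KO mice, against 8.22, 8.04 and 7.86 in the WT mice, a 3.81-fold fall. Nefh, of the same filament, changed by -1.10 and Prph, of peripheral neurons, by -1.30. Des, the muscle filament gene, rose by 1.12 and averaged 10.35 ± 0.04 in KO mice and 9.22 ± 0.06 in WT mice (SD, n = 3 each). Vim, of mesenchymal cells, stood at -0.02 and was not called.

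The sorted cells carried the listed medullary markers. Epcam, Cldn4, Cd80, H2-Aa and Aire had log2 intensities of at least 10.58 on every array. The other listed markers, Krt5 and Krt14, are keratins described above. Aire averaged 12.41 ± 0.02 in KO mice and 11.97 ± 0.04 in WT mice (SD, n = 3 each), so its signal was higher in the mice labelled KO (limma adjusted p = 0.0017). Which part of the gene its probe set reads against the deletion is not known, so it does not check the genotype labels. Epcam, the epithelial adhesion gene, changed by -0.37 (limma adjusted p = 0.021).

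Markers of other cells also differed, and their part in the keratin results was not tested. Intensities were summed on the linear scale, so each sum weighs its brightest members most and need not follow the others. Summed intensity ran from 477 to 712 in KO mice and from 723 to 1366 in WT mice for 5 T cell genes, of which Cd3g fell. WT replicate 3 had the highest value of the WT mice for each of these genes. For Cd3g the WT mice gave 8.18, 8.04 and 9.32. For 6 dendritic cell and macrophage genes the sum ran from 2828 to 2897 in KO mice and from 3036 to 3302 in WT mice. Lyz2, the brightest of them, changed by -0.06 and was not called. Adgre1 and Csf1r fell, though Adgre1 exceeded the filter on no KO array and so had to be lower. The leukocyte gene Ptprc changed by -0.62 (limma adjusted p = 0.022). Both B cell genes measured were under the filter. For 5 cortical epithelial genes the sum ran from 1665 to 1960 in KO mice and from 2133 to 2413 in WT mice. Its brightest member, Ctsl, fell (log2 -0.72), while Prss16 rose (0.36) and Ly75 stood at 0.16 and was not called. Psmb11, which defines cortical cells, and Cxcl12 were under the filter. For 4 fibroblast genes the sum ran from 1366 to 1777 in KO mice and from 1081 to 1323 in WT mice. Its brightest member, Dcn, rose (log2 0.75) and Col1a1 fell (-0.63). Col3a1 and Pdgfra stood at 0.05 and 0.08 and were not called. For 3 endothelial genes, none called, the sum ran from 180 to 206 in KO mice and from 204 to 225 in WT mice.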

How the data were processed

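The authors deposited one intensity per probe set and array, made with RMA per the submitters' processing notes, which corrects background, quantile-normalizes and summarises probes. Array medians ran from 92.9 to 98.2, which places the values on a linear scale. The sources used here give no RMA version or genome build, and the values carry no detection call, so dim genes were set aside by the filter alone. Deposited intensities were taken to log2 with nothing added. For a gene with several 1-symbol probe sets the brightest was kept. limma 3.58.1 in R 4.3.3 (lmFit, eBayes, two-sided, Benjamini-Hochberg) was fitted over all 13925 genes past the filter, and the fit was tested on simulated data. The small number of arrays bounds the precision. Layers and gene lists came from general knowledge, Krt88 entered the layer table after its values were seen, and members and lists were chosen with earlier results of these data known. Values per array were given for called keratins and for their partners or layer mates. Other lists were to name up to 4 called genes by adjusted p. Ktn1, Pkp2, the desmosome genes not called, Notch1, Trp63, Vim and the single marker genes were named after their values were seen. The 52 keratins matched RefSeq by Entrez identifier. Deviations of same-numbered arrays correlated at -0.02, -0.21 and -0.06, so no shared deviation of same-numbered mice was seen. This does not settle whether the numbers pair mice, and the main fit did not pair them. The labels give no batch. Alternatives changed the filter, scaling, offset, probe set rule, variance model, block and arrays used.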

Additional observations from a re-analysis of the deposited data

How the results depend on the processing

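Of the 27 keratins that fell, 22 kept their call under each alternative other than treat that gave them a value, and 0 changed sign. The others were Krt14, Krt25, Krt6b, Krt78 and Krt87. Krt13, Krt4, Krt33a and Krt86 gave no value when a WT array was left out and the filter applied again. With treat at a minimum log2 change of 0.5, 15 fell. The count that fell with 1 array left out was 23 to 27 of 41 tested keratins. It was 20 to 23 of 37 where a WT array was left out and the filter applied again. No filter gave 28 of 52 and the 60th percentile filter 23 of 30, against 27 of 41 in the main fit. Over all genes, 2191 of 19938 fell with no filter and 1461 of 9519 with the 60th percentile filter. With 1 array left out and the filter unchanged, 1364 to 1877 of 13925 genes fell. The replicate number as a block, though the labels do not say that it pairs mice, left 26 that fell and 1 that rose. Krt6b lost its call under it (limma adjusted p = 0.059). Besides the block, 1 keratin rose with a further quantile normalization, with centring on the median and with array weights, and 0 to 1 with 1 array left out. It was Krt31 under the block, quantile normalization and centring, and Krt222 under weights. The median log2 change was -0.34 with no filter, -0.76 with the 60th percentile filter, and -0.54 to -0.38 with 1 array left out. Changes of sign with 1 array left out were seen in Krt75 (-0.017 to 0.11; -0.012 without WT replicate 1, -0.017 without KO replicate 2), Krt79 (-0.051 to 0.16; -0.0082 without WT replicate 3, -0.021 without KO replicate 2, -0.051 without KO replicate 3), Krt90 (-0.094 to 0.051, the highest without KO replicate 3) and the Krt8 minus Krt18 shift (-0.17 to 0.0080, the highest without WT replicate 2), none of them called. With the block the pairs' smallest possible exact p is 0.25. The cause of these changes was not tested.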
